A study of Mus musculus with 16 samples.

Results

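Transcript levels of 10 mouse genes that mark tissue macrophages were examined in 8 tissues of fed and fasting mice. The genes were Cd163, Marco, Cd5l, Mrc1, Clec4f, Timd4, Vsig4, Lyve1, Adgre1 and Csf1r, and they were found by symbol among the 55385 genes of the count table. The set was selected on the fold changes between the fasting and fed library of each tissue, which were already known. Those fold changes are therefore given with counting intervals and without a test, whereas the differences between tissues did not enter the choice and were tested.

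Short-read RNA-Seq was performed on 2 adipose depots (white and brown), liver, kidney, spleen, lung, heart and muscle of male C57BL/6 mice, which were bought at 12 weeks of age. A fed group had free access to chow and water, and a fasting group went without food for 24 h. Each group had 3 mice, whose tissue was combined in equal amounts before RNA was extracted, and every such pool gave 1 library, 16 in all. No tissue and treatment has a replicate, and the 8 tissues of a treatment come from the same mice, so the spread between mice is not known.

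Macrophages are phagocytes that live in every tissue and take up dead cells, microbes and debris. Those of each tissue carry their own set of surface receptors: Kupffer cells line the sinusoids of the liver, macrophages of the splenic red pulp and marginal zone clear blood, alveolar macrophages lie in the airspaces of the lung, and interstitial macrophages sit beside vessels in fat, heart and muscle. Most of them depend on the growth factor CSF1 and its receptor, and some of their marker genes are also transcribed by other cells, such as the endothelium of lymphatic vessels and of liver sinusoids. In whole tissue, fewer cells of a type and less RNA per cell cannot be told apart.

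The promoters of 5 of these genes are shown because their levels had the most distinct patterns. Cd163 was higher in the fasting library of every tissue, Timd4 was lower in most tissues, Marco was highest in spleen, Clec4f was nearly confined to liver, and Mrc1 was present in all tissues. RefSeq windows (GRCm38.p6) from 250 bases before to 50 bases after the start of the gene were used for 7 of the 10 genes. Adgre1 and Lyve1 had no window and that of Csf1r was not used, so these genes are named only. The 250 bases before the start are printed 5′ to 3′ for Cd163 (chr6:124304401-124304650, plus strand), Timd4 (chr11:46810549-46810798, plus strand), Marco (chr1:120505025-120505274, minus strand), Mrc1 (chr2:14229164-14229413, plus strand) and Clec4f (chr6:83656117-83656366, minus strand). Capitals mark GAGGAA, the core bound by the myeloid factor PU.1, and AGAACA, a hexamer recognised by the glucocorticoid receptor, on either strand, so that TTCCTC and TGTTCT are the same motifs read on the opposite strand.
Cd163: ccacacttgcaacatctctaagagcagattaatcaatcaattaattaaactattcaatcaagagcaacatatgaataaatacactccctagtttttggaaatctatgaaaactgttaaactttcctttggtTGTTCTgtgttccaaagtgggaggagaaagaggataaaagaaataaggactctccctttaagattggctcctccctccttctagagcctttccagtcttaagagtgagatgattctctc
Timd4: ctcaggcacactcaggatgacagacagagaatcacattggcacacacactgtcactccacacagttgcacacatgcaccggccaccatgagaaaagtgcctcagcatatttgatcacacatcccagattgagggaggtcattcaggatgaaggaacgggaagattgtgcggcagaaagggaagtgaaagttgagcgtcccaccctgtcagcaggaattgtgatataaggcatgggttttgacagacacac
Marco: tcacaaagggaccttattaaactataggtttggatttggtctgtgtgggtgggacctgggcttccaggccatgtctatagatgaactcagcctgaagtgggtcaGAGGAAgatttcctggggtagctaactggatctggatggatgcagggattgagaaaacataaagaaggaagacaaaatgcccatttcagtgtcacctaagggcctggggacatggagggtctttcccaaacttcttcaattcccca
Mrc1: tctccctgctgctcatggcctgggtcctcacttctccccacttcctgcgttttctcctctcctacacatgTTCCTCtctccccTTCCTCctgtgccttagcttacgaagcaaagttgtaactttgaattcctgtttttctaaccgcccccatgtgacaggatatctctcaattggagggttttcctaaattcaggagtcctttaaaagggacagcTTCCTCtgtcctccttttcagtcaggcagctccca
Clec4f: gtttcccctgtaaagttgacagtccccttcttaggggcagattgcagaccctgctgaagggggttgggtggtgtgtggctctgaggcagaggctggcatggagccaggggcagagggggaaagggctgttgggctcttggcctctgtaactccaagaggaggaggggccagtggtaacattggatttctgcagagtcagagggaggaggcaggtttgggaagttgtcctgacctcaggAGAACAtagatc

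GAGGAA lay in 4 of the 7 windows, those of Mrc1 (3 copies), Vsig4 (2 copies), Marco and Cd5l, and in 28.3% of 32851 windows of all genes. AGAACA lay in 2 of the 7 windows, those of Cd163 and Clec4f, and in 19.0% of all windows. The Cd163 window held it 119 bases before the start and again at base 27 after the start. Neither motif overlaps the other, and the Timd4 window held neither. These matches describe the letters of the windows only.

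The library totals lay between 14245178 and 36069968 counts, so that 3 counts, taken as the floor of detection, stood for 0.0832 to 0.211 CPM, where CPM is the count of a gene scaled to a library total of 1000000. Of 24 genes that define a tissue (3 for each), 20 were higher in both libraries of that tissue than in any other library, and the others were Fabp4 in white adipose, Elovl3 in brown adipose, and Nppa and Myl7 in heart. Genes of one tissue were found at low levels in others. Alb, the liver's albumin, reached 0.0692% to 0.193% of its highest level in muscle, white adipose, brown adipose and spleen, and Ms4a1, a B cell gene highest in spleen, reached 0.213% to 0.283% of its highest level in liver, white adipose and heart. Scgb1a1, a lung gene, reached 0.118% to 0.292% of its highest level in brown adipose, heart, spleen and kidney. In muscle, liver and white adipose it reached at most 0.00215%. Some levels of the macrophage genes lay near these shares of their highest level, and whether those come from the labelled tissue was not tested. Genes that define a tissue also differed between the fed and fasting libraries of other tissues. Their median log2 fold change, fasting against fed, was 1.95 for the liver genes in heart and 2.37 for the brown adipose genes in kidney. It was -1.22 for the muscle genes in brown adipose and -1.31 for the heart genes in lung.

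The 10 genes differed widely between tissues, and this was tested with edgeR by setting each tissue against the mean of the other 7, with a tissue called at an adjusted p under 0.05 and a log2 difference above 1 in size. Spleen, liver and white adipose carried most of the higher levels, and kidney, brown adipose and muscle most of the lower ones. In spleen 7 genes were higher and 1 was lower, beside 24.8% and 20.8% of the 23580 genes tested. In liver 6 were higher and none was lower, beside 16.3% and 18.4%. Clec4f passed the filter on low counts only through liver and is left out of these counts. In white adipose 6 were higher and none was lower, beside 17.3% and 5.77%. The genes higher in liver were Cd163, Mrc1, Timd4, Marco, Cd5l and Vsig4, whereas Adgre1, Csf1r and Lyve1 joined Cd163, Mrc1 and Vsig4 in white adipose.

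The remaining tissues had fewer higher genes. Kidney had 8 lower genes and none higher, beside 11.5% and 18.0% of all genes. The exception was Csf1r, and Clec4f had 0 counts in both kidney libraries. Brown adipose had 7 lower and none higher, beside 10.7% and 12.1%. Muscle had 5 lower and none higher, beside 16.4% and 15.7%. Heart and lung lay between these groups. Heart had 2 lower, Marco and Cd5l, and none higher, beside 10.2% and 14.1%, and Lyve1 became a higher gene there under DESeq2. Lung had 2 higher, Lyve1 and Marco, beside 23.2%, and 3 lower, Cd163, Timd4 and Cd5l, beside 11.2%. The 3 lower calls in lung, and those of Cd163 and Mrc1 as higher in liver, were not made when libraries were scaled by their totals in place of TMM factors. Over all 10 genes, Clec4f included, that scaling ended 6 calls and added 3, and DESeq2 added 2.

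**Figure D1:**
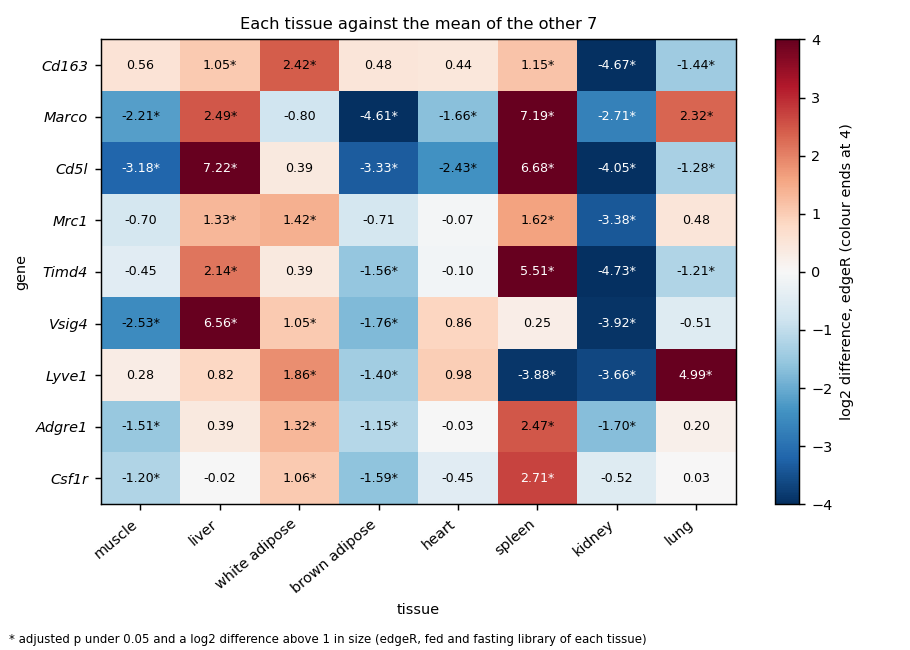
Log2 difference of 9 genes (rows; Clec4f is left out) between a tissue (columns) and the mean of the other 7 tissues, fitted by edgeR on the 16 libraries, with the value in each cell, an asterisk where the difference was called, and a colour scale that ends at 4. Vsig4 and Cd5l stand out in liver, Marco, Cd5l and Timd4 in spleen and Lyve1 in lung, and 8 of the 9 genes are called lower in kidney.

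Levels and orders of tissues in CPM rest on library totals. Levels of different genes can be set side by side only per length, and on that scale (CPM per kb of gene, mean of the fed and fasting library) the tissues had distinct leading genes. In spleen Csf1r (116.6) and Marco (102.5) led, followed by Cd5l (50.7), Mrc1 (44.1), Timd4 (40.3) and Adgre1 (39.5). In liver Cd5l (30.3) and Clec4f (25.9) stood above Mrc1 (15.6), Vsig4 (10.8) and Csf1r (9.48). The liver and the spleen thus shared Cd5l near the top, while Clec4f and Vsig4 belonged to the liver set and Marco and Timd4 to that of the spleen. In white adipose Csf1r (38.2), Mrc1 (34.2) and Cd163 (23.6) led. In lung Lyve1 (135.2) lay far above Csf1r (22.3) and Mrc1 (21.2). In the tissues with low levels the same few genes led: Csf1r (11.4) in kidney, Csf1r (10.2) and Mrc1 (9.29) in heart, Mrc1 (7.29), Csf1r (5.86) and Cd163 (5.68) in brown adipose, and Csf1r (3.89), Mrc1 (3.82) and Cd163 (3.04) in muscle.

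**Figure D2:**
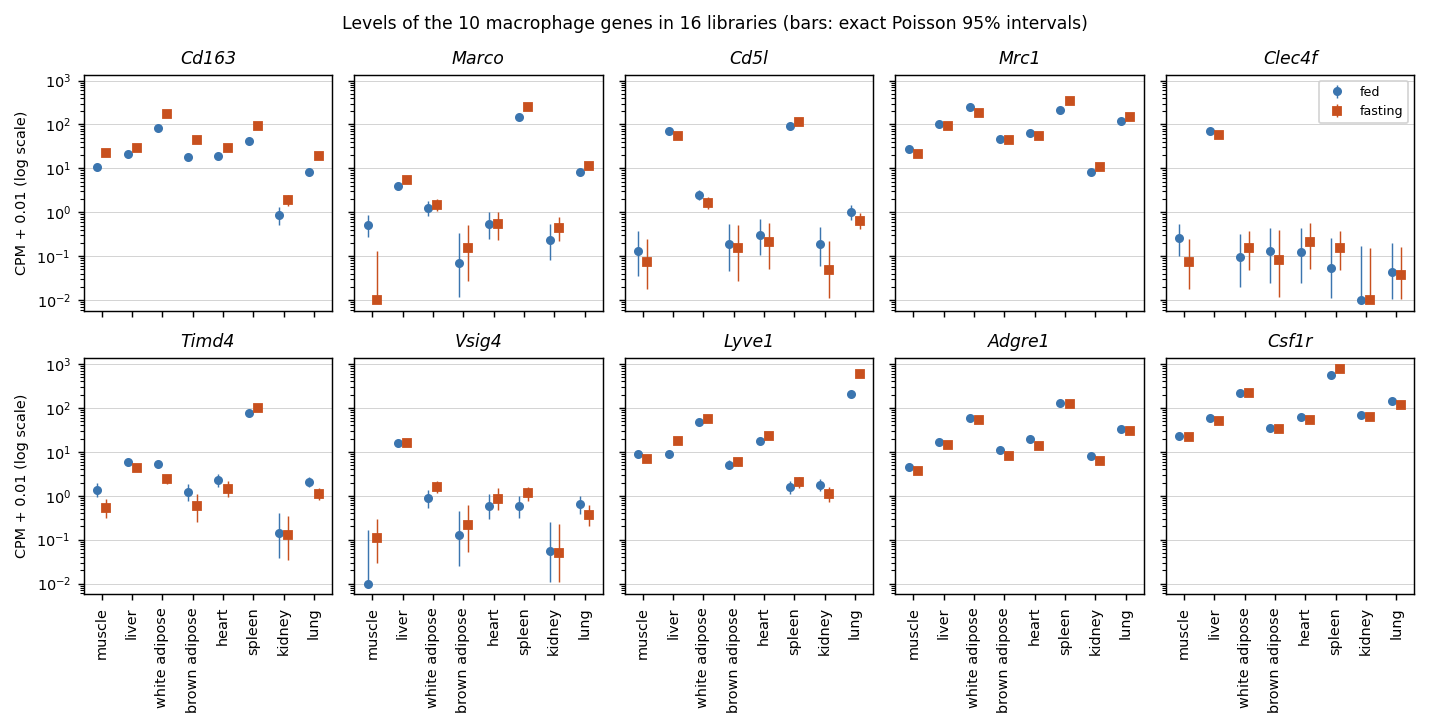
Level of each of the 10 genes, as CPM + 0.01 on a log axis, in the fed (blue circles) and fasting (orange squares) library of each tissue, with exact Poisson 95% intervals that cover counting error only. Cd163 is higher in the fasting library of all 8 tissues, Adgre1 is lower in all 8 by a smaller step, and Clec4f reaches 70.8 CPM in liver and at most 0.249 CPM elsewhere.

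Between fasting and fed libraries, Cd163 was higher in fasting in all 8 tissues, while Adgre1 was lower in all 8. Timd4 was higher in spleen and lower in the other 7 tissues, of which kidney had only 3 counts in each library, the floor. Marco was called higher in liver and spleen and lower in muscle. The remaining calls were made in single tissues or a pair of them, such as Lyve1 in lung and liver and Mrc1 in spleen. A gene was called within a tissue, with the study's thresholds, at a log2 fold change of (CPM + 0.01) above 0.5 in size and a p under 0.01 in Fisher's exact test. With 1 library a treatment such a call compares 2 libraries and not the conditions, so no p is given and the calls are only counted. As these contrasts chose the genes, nothing is read from the shares of all genes that stand beside the counts.

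In muscle Cd163 was called higher and Timd4 and Marco lower, beside 4.42% higher and 9.39% lower of all genes with a count. In liver Lyve1 and Marco were called higher and none lower, beside 4.46% and 9.52%. In white adipose Cd163 was called higher and Timd4 lower, beside 13.2% and 5.84%. The calls of Cd163 as higher and Timd4 as lower were thus shared by muscle and white adipose, and lung had them too. In brown adipose Cd163 was the only one called, higher, beside 5.39% and 7.58%. In heart Cd163 was called higher and Adgre1 lower, beside 4.33% and 5.8%. In spleen 3 were called higher, Cd163, Mrc1 and Marco, and none lower, beside 2.31% and 1.62%. Adgre1 alone of the 10 had a negative value in spleen, although the counting intervals of the ratios of Lyve1, Vsig4 and Clec4f there included 1. In kidney Cd163 was the only one called, higher, beside 2.77% and 3.93%. In lung Cd163 and Lyve1 were called higher and Timd4 lower, beside 2.68% and 6.49%.

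**Figure D3:**
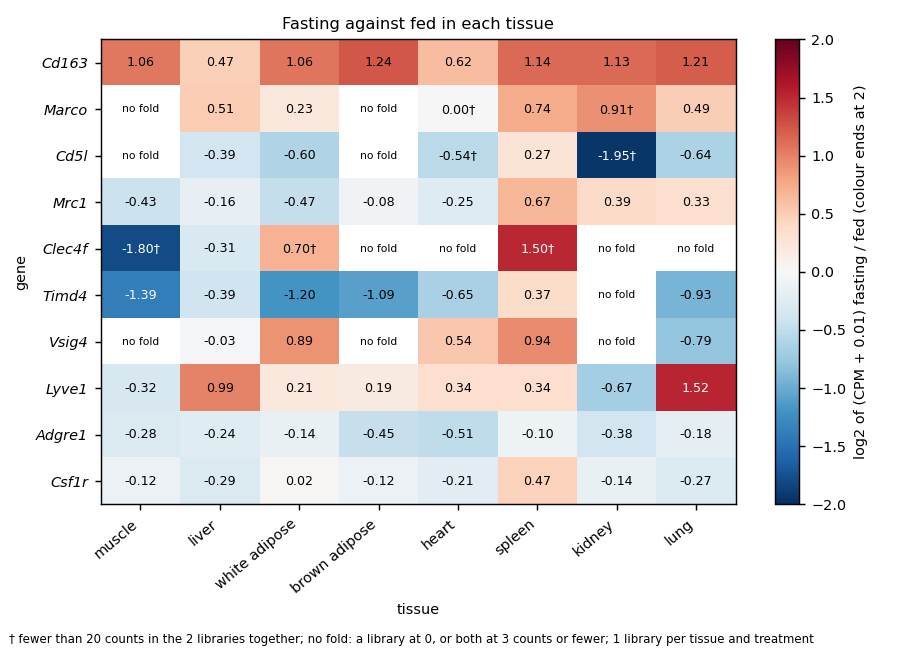
Log2 fold change of (CPM + 0.01), fasting against fed, of each of the 10 genes (rows) in each tissue (columns), with the value in each cell, a dagger for fewer than 20 counts in both libraries together, and no fold where a library had 0 counts or both had 3 or fewer. The row of Cd163 runs from 0.47 to 1.24 and that of Adgre1 from -0.51 to -0.10, and only in spleen are 9 of the 10 values positive. The counting intervals of the spleen ratios of Lyve1, Vsig4 and Clec4f include 1.

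Scavenger receptors bind modified proteins, lipoproteins and microbial surfaces. Cd163 (chr6:124304656-124330527, plus strand) encodes the receptor that takes up complexes of haemoglobin and haptoglobin. Its fed and fasting levels in CPM were 10.8 and 22.5 in muscle, 20.9 and 29.1 in liver, 83.6 and 174.7 in white adipose, 18.5 and 43.6 in brown adipose, 19.4 and 29.75 in heart, 42.4 and 93.3 in spleen, 0.8465 and 1.86 in kidney, and 8.25 and 19.1 in lung. Fasting exceeded fed in each of these pairs. The ratio of fasting to fed was close to 2 in most of them: 2.36 in brown adipose (95% counting interval 2.05 to 2.71), 2.32 in lung (2.0 to 2.69), 2.2 in spleen (2.04 to 2.37), 2.2 in kidney (1.27 to 3.96, on 19 and 48 counts), 2.09 in muscle (1.81 to 2.42) and 2.09 in white adipose (1.98 to 2.2). Heart (1.53, 1.33 to 1.77) and liver (1.39, 1.24 to 1.56) had the smallest ratios, and the liver value of 0.47 on the log2 scale fell short of the call, which it passed with TMM factors (0.60). All 8 intervals lay above 1. Of 20286 genes with a count in every tissue, 49 were called higher in 7 or more tissues and 22 of them in all 8.

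Cd163 was highest in white adipose, which was higher than the mean of the other tissues by 2.42 on the log2 scale (SE 0.112, adjusted p = 4.39e-08, edgeR), and was lowest in kidney, where the log2 difference was -4.67 (SE 0.208, adjusted p = 9.17e-09). Spleen (1.15, adjusted p = 8.11e-06) and liver (1.05, adjusted p = 3.04e-05) were also higher. In the order of tissues, each of the first 6 overlapped with the next, since the fed level of one lay below the fasting level of the next, and only the kidney stood apart.

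Marco (chr1:120474538-120505024, minus strand) encodes a collagen-like scavenger receptor of splenic marginal zone and alveolar macrophages. It was at 147.6 CPM in the fed and 247 CPM in the fasting spleen library, at 8.18 and 11.5 CPM in lung, and at 3.91 and 5.57 CPM in liver. The fasting level was the higher one in each of these tissues. The ratios were 1.67 in spleen (1.6 to 1.74), 1.4 in lung (1.19 to 1.65) and 1.43 in liver (1.09 to 1.88). The lung value was called with TMM factors (log2 0.56) or those of DESeq2. The call in liver rested on a log2 fold change of 0.51 and was not made with a pseudocount of 1 CPM. Outside these tissues Marco had at most 40 counts in a library. Muscle gave 12 counts when fed and 0 when fasting, which is at least 5.14-fold lower when the fasting library is set at the floor of 3 counts. The muscle call was not made with a filter at 1 CPM. Those 12 counts stood at 0.498 CPM, against 247 CPM in the fasting spleen library. Ms4a1, the B cell gene, was at 0.125 CPM in the fed muscle library and at 0 in the fasting one. The fed muscle level was 0.0141% of its highest level, 883.4 CPM in the fed spleen library. Whether the Marco counts come from muscle was not tested. The spleen exceeded the mean of the other tissues by 7.19 on the log2 scale (SE 0.277, adjusted p = 2e-09, edgeR), the liver by 2.49 (SE 0.365, adjusted p = 0.000134) and the lung by 2.32 (SE 0.342, adjusted p = 0.000152).

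Cd5l (chr3:87357881-87371073, plus strand) encodes a secreted protein of the scavenger receptor cysteine-rich family, also known as AIM, which macrophages release and which acts on lipid metabolism and cell survival. It was at 69.8 CPM fed and 53.4 CPM fasting in liver and at 93.5 and 112.9 CPM in spleen. The difference thus had opposite signs in these 2 tissues, with ratios of 0.766 (0.711 to 0.824) and 1.21 (1.14 to 1.28), and neither was called. White adipose had 2.49 and 1.64 CPM and lung 0.998 and 0.638 CPM, both lower in fasting. The other 4 tissues held between 1 and 5 counts a library. Liver (7.22, SE 0.154, adjusted p = 8.99e-12) and spleen (6.68, SE 0.155, adjusted p = 4.98e-11) exceeded the mean of the other tissues on the log2 scale in edgeR's fit, and the order of these 2 tissues turned with the scaling, since spleen was higher by library totals and liver with TMM factors.

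Lectins recognise sugars on glycoproteins and microbes. Mrc1 (chr2:14229392-14332057, plus strand) encodes the mannose receptor CD206, which is also made by sinusoidal and lymphatic endothelium. Its fed and fasting levels in CPM were 27.9 and 20.7 in muscle, 104.5 and 93.7 in liver, 253.1 and 182.8 in white adipose, 47.6 and 45.2 in brown adipose, 64.4 and 54.0 in heart, 217.4 and 345 in spleen, 8.11 and 10.6 in kidney, and 119.7 and 150.6 in lung. Spleen, kidney and lung were higher in fasting and the other 5 tissues lower. The ratio was 1.59 in spleen (1.53 to 1.64), which was called, and 0.722 in white adipose (0.696 to 0.75), which was called only with TMM factors (log2 -0.58) or the size factors of DESeq2. White adipose was thus the highest tissue of the fed libraries and spleen that of the fasting ones. Spleen (1.62), white adipose (1.42) and liver (1.33) were higher than the mean of the other tissues on the log2 scale, with adjusted p-values of 9.07e-06, 8.89e-05 and 7.1e-05 in edgeR.

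Clec4f (chr6:83644542-83656187, minus strand) encodes a galactose-binding lectin of Kupffer cells. It was at 70.8 CPM in the fed and 57.1 CPM in the fasting liver library, a ratio of 0.806 (0.75 to 0.866) that was not called. It passed the filter on low counts only through liver, so its level there was not tested. In the other 14 libraries Clec4f had 0 to 6 counts, which was at most 0.352% of its highest level. The share of the liver's Alb in these libraries lay between 0.00183% and 0.193%.

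Receptors with an immunoglobulin domain bind dying cells and opsonised particles. Timd4 (chr11:46810800-46844332, plus strand) encodes TIM-4, a receptor for phosphatidylserine on dying cells that marks long-lived resident macrophages. Its fed and fasting levels in CPM were 1.37 and 0.517 in muscle, 5.73 and 4.37 in liver, 5.37 and 2.33 in white adipose, 1.2 and 0.562 in brown adipose, 2.27 and 1.44 in heart, 76.4 and 98.6 in spleen, 0.134 and 0.116 in kidney, and 2.06 and 1.08 in lung. The kidney levels rested on 3 counts in each library, which is the floor. Only in spleen was the fasting level the higher one, with a ratio of 1.29 (1.21 to 1.37). The ratios called lower were 0.377 in muscle (0.194 to 0.705, on 33 and 16 counts), 0.435 in white adipose (0.317 to 0.592, on 125 and 64 counts) and 0.524 in lung (0.342 to 0.795, on 62 and 39 counts). Brown adipose had a similar ratio of 0.466, but on 20 and 8 counts its interval (0.178 to 1.11) included 1. The spleen exceeded the mean of the other tissues by 5.51 on the log2 scale (SE 0.209, adjusted p = 1.74e-09, edgeR) and the liver by 2.14 (SE 0.255, adjusted p = 2.67e-05).

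Vsig4 (chrX:96247203-96293438, minus strand) encodes a complement receptor that captures particles coated with C3 fragments, best known from Kupffer cells. It was at 16.1 CPM in the fed and 15.8 CPM in the fasting liver library, and the ratio of 0.98 had an interval (0.848 to 1.13) that included 1 and changed sign with TMM factors (log2 0.09). The fed and fasting libraries held 20 and 44 counts in white adipose, 13 and 31 in spleen, 10 and 13 in heart and 19 and 13 in lung. Of these the interval of white adipose alone excluded 1, with a ratio of 1.87 (1.08 to 3.35), and none was called. Muscle had 0 and 3 counts, which is at the floor. The liver exceeded the mean of the other tissues by 6.56 on the log2 scale (SE 0.254, adjusted p = 1.64e-09, edgeR), and white adipose by 1.05 (SE 0.35, adjusted p = 0.0312).

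Lyve1 (chr7:110850607-110863239, minus strand) encodes a receptor for hyaluronan, which is carried by perivascular macrophages and by the endothelium of lymphatic vessels and liver sinusoids. Its fed and fasting levels in CPM were 8.68 and 6.95 in muscle, 8.94 and 17.8 in liver, 47.6 and 55.1 in white adipose, 5.12 and 5.83 in brown adipose, 17.8 and 22.5 in heart, 1.59 and 2.01 in spleen, 1.74 and 1.09 in kidney, and 204.5 and 584.9 in lung. The lung was highest in both treatments, and its fasting library held the highest level of any. The spleen levels rested on 36 and 56 counts and those of kidney on 39 and 28. The lowest level, in the fasting kidney library, was 0.186% of the highest. Scgb1a1, a lung gene, reached 0.118% to 0.14% of its highest level in the spleen and kidney libraries. Whether the Lyve1 counts there come from the labelled tissue was not tested. The ratio was 2.86 in lung (2.78 to 2.94) and 1.99 in liver (1.68 to 2.36), and both were called, while muscle and kidney were lower in fasting. The lung exceeded the mean of the other tissues by 4.99 on the log2 scale (SE 0.225, adjusted p = 1.81e-08, edgeR), and the spleen was below it, with a log2 difference of -3.88 (SE 0.419, adjusted p = 8.89e-06).

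Other genes of lymphatic and sinusoidal endothelium moved less beside Lyve1. In lung, Reln was at 22.5 CPM fed and 42.3 CPM fasting and Mmrn1 at 34.0 and 56.2 CPM, whereas Pdpn, a membrane glycoprotein of lymphatic and alveolar cells, was at 121.5 and 120.3 CPM. Of 9 such genes with a count in lung 2 were called higher and 1 lower, with a median log2 fold change of -0.01 against -0.10 for all genes, and their summed level was 333.1 CPM fed and 414.5 CPM fasting. Ccl21a was at 0 in both lung libraries, but it also failed edgeR's filter on low counts over all libraries, so nothing is read from it. In liver 1 of 9 was called higher, Prox1, a transcription factor also of hepatocytes, at 159.8 and 277.1 CPM. Leukocyte genes were lower in the fasting lung library, where all 9 B and T cell genes and 7 of 8 pan-leukocyte genes were called lower, and Ptprc, which encodes the leukocyte antigen CD45, was at 373 and 194 CPM. The part of these changes in the level of Lyve1 was not tested.

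Adgre1 (chr17:57358691-57483527, plus strand) encodes the adhesion G protein-coupled receptor F4/80, the standard surface marker of mouse macrophages. Its fed and fasting levels in CPM were 4.49 and 3.69 in muscle, 16.6 and 14.0 in liver, 59.3 and 53.7 in white adipose, 11.3 and 8.21 in brown adipose, 19.6 and 13.8 in heart, 132.3 and 123.6 in spleen, 8.06 and 6.21 in kidney, and 33.2 and 29.4 in lung. Every tissue was lower in fasting. The ratio ran from 0.704 in heart (0.59 to 0.839) to 0.934 in spleen (0.889 to 0.981), and 7 of the 8 intervals lay below 1, that of muscle (0.626 to 1.08) being the exception. Heart was the only call, at a log2 fold change of -0.51, and was not called with TMM factors (-0.45). The spleen exceeded the mean of the other tissues by 2.47 on the log2 scale (SE 0.0844, adjusted p = 7.46e-10, edgeR) and white adipose by 1.32 (SE 0.0918, adjusted p = 9.72e-07), and heart and liver were the only neighbours in the order that overlapped.

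Csf1r encodes the receptor for CSF1 and IL-34, on which macrophages depend for survival, and lies on chromosome 18 (61100598 to 61132149, plus strand). Its fed and fasting levels in CPM were 23.4 and 21.5 in muscle, 60.2 and 49.2 in liver, 219.0 and 222.2 in white adipose, 35.2 and 32.5 in brown adipose, 63.0 and 54.3 in heart, 565 and 781 in spleen, 69.4 and 62.9 in kidney, and 141 and 116.6 in lung. The spleen was higher in fasting, with a ratio of 1.38 (1.35 to 1.41), white adipose was at 1.01 (0.977 to 1.05) and changed sign with TMM factors (log2 -0.08), and the other 6 tissues were lower, with ratios of 0.817 to 0.923. None was called. Spleen (2.71, SE 0.101, adjusted p = 1.43e-09) and white adipose (1.06, SE 0.113, adjusted p = 2.59e-05) exceeded the mean of the other tissues on the log2 scale in edgeR's fit. In kidney, where 8 of the other genes were called lower, Csf1r had a log2 difference of -0.52 and was not called. The gene overlaps Hmgxb3 on the opposite strand, which had 20676 counts over the 16 libraries against 64153 for Csf1r, and the strand setting of the counting is not given in the sources used here.

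Within a library, the level of Cd163 relative to that of Adgre1 does not depend on how libraries are scaled. Per length, the ratio of Cd163 to Adgre1 went from 1.42 in the fed to 3.61 in the fasting library in muscle, from 0.748 to 1.23 in liver, from 0.836 to 1.93 in white adipose, from 0.973 to 3.15 in brown adipose, from 0.586 to 1.28 in heart, from 0.19 to 0.448 in spleen, from 0.0622 to 0.178 in kidney, and from 0.147 to 0.386 in lung. The fasting ratio was the higher one in all 8 tissues. That direction follows from the choice of these genes, as Cd163 was higher and Adgre1 lower in fasting in all 8. It is therefore not a separate result. The fasting ratio was 1.64 times the fed ratio in liver and 2.18 to 3.23 times in the other tissues. The tissues also differed in the ratio itself, with the fed muscle above, and the fed spleen, lung and kidney far below, equal levels.

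**Figure D4:**
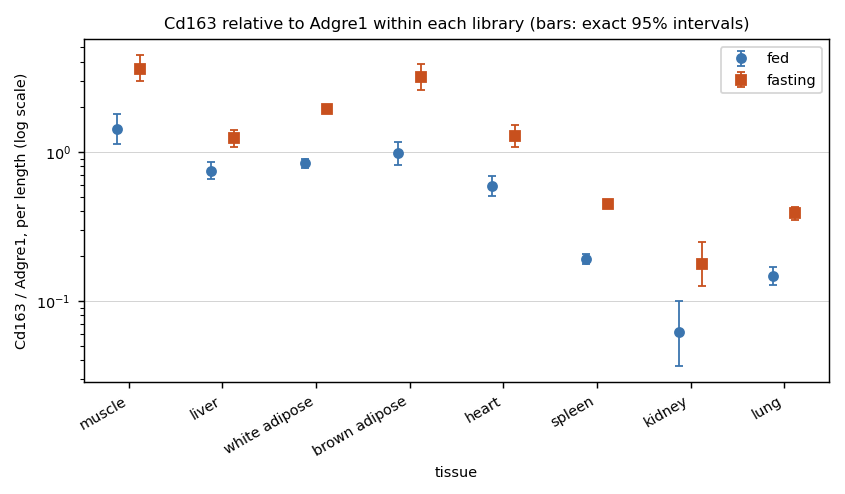
Ratio of Cd163 to Adgre1 per length (log axis) in the fed (blue circles) and fasting (orange squares) library of each tissue, with exact 95% intervals that cover counting error only. The fasting ratio is above the fed one in every tissue, from 3.61 against 1.42 in muscle to 0.178 against 0.0622 in kidney. That direction follows from Cd163 being higher and Adgre1 lower in fasting in every tissue.

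A fit of all 16 libraries with tissue as a block gave a single fasting difference per gene over the 8 tissues. Among 23580 genes, 1.03% were called higher and 0.84% lower at an adjusted p under 0.05 (edgeR). As the fit covers the contrast that chose the 10 genes, their values are given with no test. Cd163 had a log2 difference of 1.02 (SE 0.0936), which stayed between 0.981 and 1.09 when any tissue was left out. Adgre1 was at -0.24 (SE 0.0697) and Timd4 at -0.61 (SE 0.208), while Lyve1 was at 0.45 (SE 0.212) and at 0.22 without the lung. Without the spleen Timd4 was at -0.84 and Cd5l at -0.54, against -0.29 (SE 0.164) for Cd5l with all tissues. Without white adipose Timd4 was at -0.41 and Cd5l at -0.14. The remaining estimates were 0.39 for Marco (SE 0.295), 0.42 for Vsig4 (SE 0.27), -0.12 for Clec4f (SE 0.279), -0.04 for Csf1r (SE 0.0822) and 0.04 for Mrc1 (SE 0.135). Leaving out a tissue gave 0.17 to 0.56 for Marco, which DESeq2 put at 0.24, and 0.29 to 0.62 for Vsig4. It gave -0.23 to 0.04 for Clec4f, -0.12 to -0.02 for Csf1r and -0.06 to 0.13 for Mrc1, so the signs of Clec4f and Mrc1 turned. Of the 10 genes 5 had a positive and 5 a negative value, with a median of 0.00 against -0.01 for all genes.

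Other genes of macrophages and their relatives are given by lists that were written by hand with earlier results of these data known. Their members were tested in this same fit, and their p-values carry that limit. Genes that macrophages of most tissues share, such as Lyz2 and Ctss, both lower in fasting in all 8 tissues by small amounts, had a median log2 difference of -0.18 against -0.01 for all genes, and 16 of 20 were negative. None of the 20 passed the adjusted threshold in edgeR, although 11 had an unadjusted p under 0.05 and DESeq2 called 1 higher and 3 lower. Mertk, a receptor for dying cells, went the way of Cd163 and was higher in all 8 tissues, at 0.49 (SE 0.109, adjusted p = 0.0501). It was chosen for mention after its values were seen.

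Among 15 genes of interstitial resident macrophages 1 was called lower over all tissues and none higher, and 14 had a negative estimate, with a median of -0.39. An unadjusted p under 0.05 was found for 7, all lower, and DESeq2 called 3 lower. The gene called by edgeR was Fcrls, an Fc receptor-like scavenger gene (-1.03, SE 0.181, adjusted p = 0.023). Within tissues, Fcrls was called lower in muscle, white adipose, brown adipose, heart and lung, for example from 38.8 to 14.3 CPM in white adipose. Folr2, a folate receptor, was called lower in the same 5 tissues, from 37.5 to 24.3 CPM in white adipose, and Mgl2, a galactose lectin, was called lower in 5 tissues too, from 50.9 to 19.8 CPM in white adipose. Cbr2, a carbonyl reductase and the most abundant gene of the list per length, was at -0.05 (adjusted p = 0.929). The estimates over all tissues were -0.55 for Folr2 (adjusted p = 0.0801) and -0.60 for Mgl2 (adjusted p = 0.139), which did not pass the threshold. White adipose had 9 of the 15 called lower and none higher, beside 5.84% and 13.2% of all genes with a count. In that tissue Cd163 was at 83.6 CPM fed and 174.7 CPM fasting and Mrc1 at 253.1 and 182.8 CPM. Of 8 pan-leukocyte genes 4 were called lower there and all 8 were negative, with a median log2 fold change of -0.48.

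Genes shared by Kupffer cells and red pulp macrophages had a median of 0.12, with 8 of 13 positive. None passed the adjusted threshold in edgeR or DESeq2, and 5 had an unadjusted p under 0.05. In spleen 12 of the 13 were positive, with a median log2 fold change of 0.26, and 2 were called higher. One was Vcam1, an adhesion molecule of the red pulp, at 527.1 CPM fed and 1023 CPM fasting, and the other Itgad, an integrin of red pulp macrophages, at 122.4 and 240.7 CPM. In the same tissue Cd163, Mrc1 and Marco were called higher, as were 4 of the 20 shared macrophage genes, with none of the 20 lower, although 10 of the 20 were negative (median 0.05). Of the 15 interstitial genes 1 was called higher and 2 lower in spleen, and 8 were negative. The summed level of the 10 genes was 1277 CPM fed and 1805 CPM fasting in spleen. Hmox1, which degrades haem, was called higher in muscle, brown adipose, heart and kidney, with 5.0 and 56.5 CPM in heart, while Id3 was called lower in 3 tissues and higher in kidney.

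Alveolar macrophage genes had a median of 0.38 with none called and none with an unadjusted p under 0.05 in edgeR, and DESeq2 called none. In lung 7 of the 8 were positive and 2 were called higher, of which Chil3, a chitinase-like protein, was at 361.3 CPM fed and 626.2 CPM fasting. Lung Marco was at 8.18 and 11.5 CPM and lung Cd163 at 8.25 and 19.1 CPM. The lists of other blood cells lay below 0. Monocyte genes had a median of -0.40 and 2 of 8 called lower, Ccr2, the receptor for the chemokine CCL2 (-0.56, SE 0.0898, adjusted p = 0.0171), and Spn, which encodes CD43 (-0.62, SE 0.128, adjusted p = 0.0389). Neutrophil genes had a median of -0.60 and 2 of 10 called lower, S100a9 (-0.80, SE 0.177, adjusted p = 0.0494) and Mmp9 (-0.66, SE 0.126, adjusted p = 0.0309). The other direction was taken by 3 of the 10, Ltf (0.95), Ngp (0.74) and Camp (0.26), which encode granule proteins and were not called. Within tissues 3 neutrophil genes were called higher and 6 lower in lung, where their summed level was 189.1 CPM fed and 227.1 CPM fasting, and 2 were called higher and 5 lower in spleen. All 8 pan-leukocyte genes were negative, with a median of -0.36, and Rac2 was called lower (-0.56, SE 0.116, adjusted p = 0.0378). All 8 had an unadjusted p under 0.05, and 5 were called lower by DESeq2 and 3 with total counts. All 9 B and T cell genes were negative too, with a median of -0.46 and none called by edgeR or DESeq2, 5 of them at an unadjusted p under 0.05.

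Signalling and effector genes completed the picture. Csf1, the ligand of the receptor that Csf1r encodes, was lower in 7 of 8 tissues and called lower in 6 of them, for example from 90.5 to 50.8 CPM in white adipose and from 66.9 to 36.2 CPM in heart. Its estimate over all tissues was -0.51 (SE 0.124, adjusted p = 0.0599), and none of the 9 genes of CSF1 and CSF2 signalling passed the threshold in edgeR, with 5 at an unadjusted p under 0.05 and 3 called lower by DESeq2. Il34, the second ligand, was at 0.36 (SE 0.175, adjusted p = 0.299). Of 11 inflammatory mediators tested 1 was called lower, Il1b, which encodes interleukin 1β (-1.44, SE 0.304, adjusted p = 0.0459), and 9 were negative. Heart went the other way, with 4 of 12 called higher and 1 lower and a median log2 fold change of 0.96, and Ccl2, a monocyte chemokine named after its values were seen, was at 2.5 CPM fed and 7.08 CPM fasting there. Nos2, the inducible nitric oxide synthase, was called lower within 6 tissues and had an estimate of -1.10 (adjusted p = 0.0636).

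Scavenger receptors beside the 10 genes had a median of -0.11, with 4 of 10 positive and none called by edgeR, 2 at an unadjusted p under 0.05 and 1 called higher by DESeq2. Cd36, a fatty acid transporter of adipocytes, muscle and endothelium as well as of macrophages, was higher in all 8 tissues by library totals and in 7 with TMM factors, white adipose being the exception (0.40, SE 0.113, adjusted p = 0.0918). The dendritic cell list had a median of -0.32 and none of 8 called by edgeR or DESeq2, 1 at an unadjusted p under 0.05. Genes of blood vessel endothelium had a median of -0.06 and none of 8 called by edgeR, 5 at an unadjusted p under 0.05 and 1 called lower by DESeq2. Among 9 genes of lymphatic and sinusoidal endothelium 1 was called higher, Gpr182, a scavenging chemokine receptor (0.62, SE 0.105, adjusted p = 0.0208). None of the 8 genes called by edgeR in these lists, Fcrls, Ccr2, Spn, S100a9, Mmp9, Rac2, Il1b and Gpr182, was called in each of the 8 fits that left out 1 tissue. Ccr2 was not called without brown adipose or lung (adjusted p up to 0.0579), Gpr182 without brown adipose, heart or lung (up to 0.0668), and Fcrls (up to 0.0761) and Mmp9 (up to 0.0839) without muscle, brown adipose, heart or lung. Spn held only without liver, S100a9 and Il1b only without white adipose, and Rac2 only without spleen, with adjusted p-values of up to 0.0949, 0.115, 0.0945 and 0.0908 in the other fits. The log2 differences of the 8 genes kept their signs in all these fits.

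**Figure D5:**
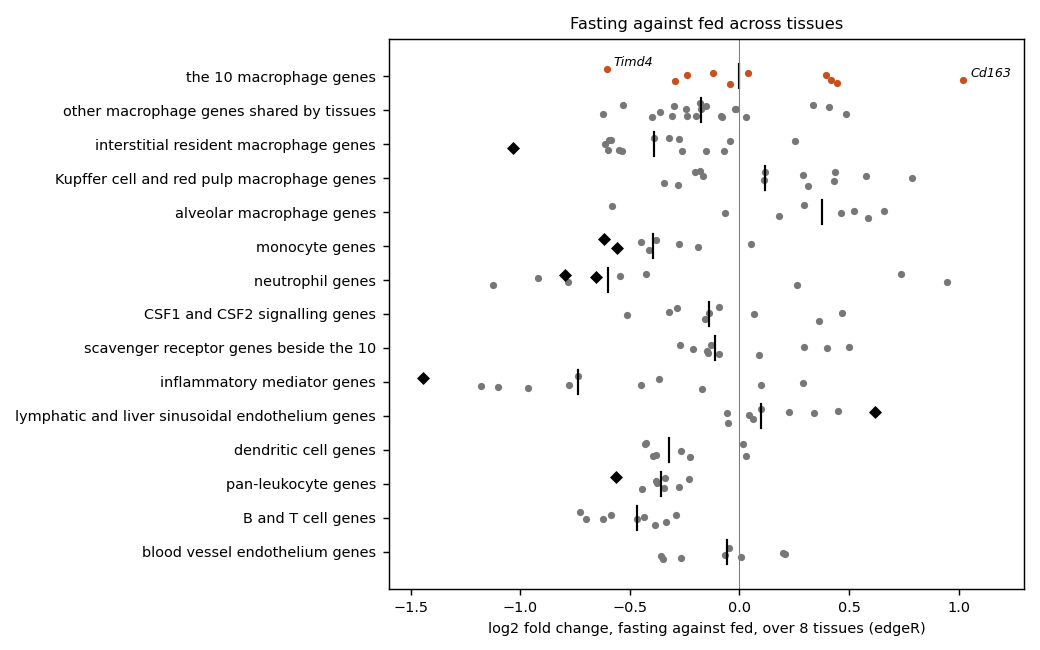
Log2 fold change, fasting against fed, fitted by edgeR over the 8 tissues, with 1 point for each gene of a list (rows), a line at the median of the list, black diamonds for genes outside the 10 with an adjusted p under 0.05, and the 10 macrophage genes in orange. Cd163 lies at 1.02, to the right of every other point in the plot, while the lists of leukocyte, monocyte, neutrophil and interstitial macrophage genes have medians of -0.36 to -0.60.

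Over the 16 libraries the 10 genes formed sets that followed the tissues. The Pearson r of log2(CPM + 1) was 0.955 for Adgre1 with Csf1r, 0.952 for Vsig4 with Clec4f and 0.901 for Timd4 with Marco, while Lyve1 had an r of at most 0.427 with any other, that with Mrc1. Cd163 was closest to Mrc1 (0.799). These values are descriptions over libraries that share mice and come in pairs of a tissue. Among 21965 genes of 1 CPM or more in a library, those most like Cd163 were Ifi207 (0.926), Sun2 (0.876) and Trafd1 (0.846). Mrc1 was most like Siglec1 (0.953), the sialic acid receptor of macrophages, and Adgre1 most like Fcer1g (0.971), a signalling subunit of Fc receptors. Csf1r was most like Nlrp1c-ps (0.977), Lyve1 like Mamdc2 (0.934), Timd4 like Trim30c (0.965), Marco like Rims3 (0.989), Cd5l like Dnase1l3 (0.994), Vsig4 like Lcat (0.973) and Clec4f like Gm34667 (0.999). Spic, a transcription factor of red pulp macrophages, was the third closest gene to Timd4 (0.959).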

How the data were processed

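The authors sequenced strand-specific paired-end libraries (read length 100) and, per the labels' processing notes, used fastp 0.23.2, FastQC 0.11.8, HISAT2 2.2.1.0, GRCm38 and featureCounts (Subread 2.0) with GENCODE mouse release 24. They deposited raw counts per gene and library, and each gene's length, an other value, which the authors' counter wrote. Symbols came from release 21 and matched 55144 of 55385 identifiers. The 10 genes and all lists were chosen with earlier results of these data known.

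CPM are counts scaled to a library total of 1000000, so a few abundant genes can shift all others, and intervals are exact (Poisson, or Clopper-Pearson for ratios, 95%) for counting error only. Fisher's exact test (two-sided) ran on every gene with a count in a tissue. edgeR 4.0.16 (R 4.3.3; TMM, filterByExpr on the design, quasi-likelihood F test, Benjamini-Hochberg) fitted tissue and treatment to 16 libraries with 7 residual degrees of freedom. SEs were derived from the log2 difference and its F statistic, and SEs of Clec4f outside liver, kidney, heart and muscle could not be estimated. The p-values rest on how far the fasting difference varied from tissue to tissue, in pools of the same mice, and not on the spread between mice. In the contrasts between tissues, the fed and fasting library of a tissue stood in for replicates. On 23778 genes simulated with variation between libraries, edgeR recovered 99 of 100 changed by fold 2 and 100 of 100 by fold 4, with 6 false calls. Fisher's test on 23887 genes of liver recovered 90 of 100 by fold 2 and 96 of 99 by fold 4, with 55 false calls. The counts for Fisher's test were simulated with counting error only. Its false calls under variation between libraries, which real libraries have, were not measured.

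Alternatives were a pseudocount of 1 CPM, TMM factors and DESeq2 1.42.0 size factors within tissues, a filter at 1 CPM, edgeR's exact test at a coefficient of variation set to 0.2 or 0.4, total counts, DESeq2's Wald test, no filter, and each tissue left out in turn, and 1 was added after seeing the data, filterByExpr with the treatments as groups. Named were the 10 genes, the 2 highest genes of each list per length, list genes called one way in 5 or more tissues, and the 3 genes most like each of the 10, of which the text gives those a result turns on. Mertk, Il34, Spn, Mmp9, Rac2, Gpr182, Reln, Mmrn1, Ccl21a, Ptprc, Vcam1, Itgad, Ccl2, Ltf, Ngp, Camp and Scgb1a1 were named after their values were seen. Tables and plots were made with Python 3.11.15 (pandas 2.3.3, numpy 2.4.6, scipy 1.17.1, matplotlib 3.10.9). Other assays of the study were not analysed here.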

Additional observations from a re-analysis of the deposited data

Results flagged for a closer look

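Marco was called in opposite directions in different tissues. Its log2 fold change, fasting against fed, was 0.51 in liver (90 and 139 counts) and 0.74 in spleen (3344 and 6874 counts), whereas muscle gave 12 counts when fed and 0 when fasting, which is a log2 fold change of -2.36 or lower when the fasting library is set at the floor of 3 counts. The muscle counts stood at 0.498 CPM and were not called with a filter at 1 CPM, and liver was not called with a pseudocount of 1 CPM. With 1 library per tissue and treatment the difference between tissues was not tested.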

How the results depend on the processing

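No paired analysis was possible because the labels give no replicate numbers and each tissue has 1 library a treatment, other than over tissues, where edgeR's fit already held tissue as a block. edgeR's exact test at a coefficient of variation set to 0.2 called 1 of the 10 genes in muscle (3 with Fisher's test), 0 in liver (2), 0 in white adipose (2), 0 in heart (2), 1 in spleen (3) and 0 in kidney (1). At 0.4 it called 1 in muscle and 0 in liver, white adipose, brown adipose (1 with Fisher's test), heart, spleen, kidney and lung (3). A pseudocount of 1 CPM left 1 call in liver and 1 in heart, and TMM factors or DESeq2 size factors 1 in heart. No fold change or tissue difference of the 10 genes reversed as a call. The counts of genes higher in fasting across tissues and of genes lower in fasting across tissues were 243 and 198 with edgeR, 861 and 1003 with DESeq2, 374 and 303 with no filter, and 400 and 359 with filterByExpr by treatment (chosen after seeing the data), while total counts gave 394 lower. Leaving out 1 tissue gave 57 to 274 higher (57 without brown adipose, 81 without heart, 93 without lung, 95 without muscle, 156 without kidney) and 24 to 227 lower (24 without brown adipose, 39 without lung, 40 without muscle, 44 without heart, 102 without kidney). Against the other tissues DESeq2 called 1 of the 10 genes higher in heart (0 with edgeR), and total counts called 0 lower in lung (3 with TMM). The causes were not tested. Median log2 fold changes of all genes of 1 CPM moved by over 0.1 from library totals to TMM factors in liver (-0.12 to 0.00) and white adipose (0.04 to -0.07). Genes with few counts, such as Clec4f outside the liver, are limited by depth.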
